A study of Rattus norvegicus with 15 samples.

Results

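AP-1 is a transcription factor made of pairs of Fos and Jun proteins, and 10 genes for AP-1 subunits and related immediate early factors were followed across 15 rat lung libraries. The genes were picked by symbol from the 22250 rows of the expression table: the Fos family (Fos, Fosb, Fosl1, Fosl2), the Jun family (Jun, Junb, Jund) and the immediate early genes Egr1, Atf3 and Ier3. Each symbol occurred once. All 10 passed the filter on low values, which asked for 1 FPKM or more in 5 or more libraries, and were among the 13172 genes tested. Fosl1 reached that level in all 5 control libraries but in 1 WDD and 2 COPD libraries, so it passed through the group where it was highest.

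The libraries came from lungs of wild-type (WT) rats, 5 per group. WDD rats had received lipopolysaccharide (LPS), a bacterial cell wall component, together with smoke by the trachea, and Wendan Decoction (WDD), a traditional Chinese herbal formula, into the stomach. COPD rats had received the same tracheal LPS and smoke without the decoction, a model of chronic obstructive pulmonary disease. Control rats were normal. The sources used here give no strain, age, sex, dose or time. Whether libraries and animals correspond one to one is not stated either, and the spread behind each p-value may then be partly technical.

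Fos proteins cannot bind DNA alone and pair with a Jun protein through a leucine zipper. Jun proteins can also pair with each other or with ATF proteins. The pairs bind AP-1 sites in front of genes for proteases, cytokines and growth factors. Immediate early genes are switched on within minutes of a stimulus, without new protein being made, by way of MAP kinases and the factors SRF and CREB, and most of their transcripts are short-lived. In lung, they respond to LPS, smoke particles, stretch and tissue injury, and also to handling of the tissue.

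Expression is in FPKM, a fragment number divided by the length of the gene and by library size, so that levels of different genes can be set side by side. Relative to control 2, depth ran from 0.879 to 1.11 across libraries, as read from the steps of low values. The libraries differed in makeup before any member was considered. Mitochondrially encoded genes held 19.1% to 26.5% of the FPKM sum in WDD lungs, 33.7% to 65.0% in COPD lungs and 5.19% to 9.62% in control lungs. The median level of tested genes was 9.60 to 10.3 FPKM in WDD lungs, 5.08 to 7.47 FPKM in COPD lungs and 12.2 to 13.1 FPKM in control lungs. Some fold changes are therefore also given relative to the median of all genes. That median was -0.81 in COPD against control, 0.54 in WDD against COPD and -0.23 in WDD against control lungs (log2 units). COPD 5 stood apart over all tested genes: its root-mean-square differences from the other COPD libraries, on the log2 scale, were 0.92 to 1.01, against at most 0.71 for the other 26 pairs of libraries within groups, and it had the lowest library weight (0.0947). The lung markers Sftpc and Ager were high in all libraries, at 1842 FPKM or more and at 178 FPKM or more. The liver marker Alb did not exceed 0.180 FPKM in any, but other liver markers were present. The 4 listed liver markers summed to 7.82 to 17.3 FPKM in WDD, 0.183 to 2.58 FPKM in COPD and 7.09 to 19.1 FPKM in control lungs. Of these 4, 1 passed the filter and was called lower in COPD than in control lungs. The endothelial marker Cldn5 was listed at 0 in every library.

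Promoter windows from RefSeq (build GRCr8, 250 bases before to 50 bases after the annotated start) were matched by symbol for 6 of the 10 genes. Shown are Fosl2 and Junb, which had the group differences that held under all alternatives tried, Jund, whose level varied least between libraries, and Egr1, one of the most variable. They lie at chr6:30039220-30039519 (minus strand), chr19:40080876-40081175 (plus strand), chr16:18769722-18770021 (minus strand) and chr18:26736828-26737127 (plus strand). Capitals mark matches on either strand to the AP-1 site TGANTCA, the cyclic AMP response element TGACGTCA, the TATA box TATAAA or the CArG box, the site of SRF.
Fosl2: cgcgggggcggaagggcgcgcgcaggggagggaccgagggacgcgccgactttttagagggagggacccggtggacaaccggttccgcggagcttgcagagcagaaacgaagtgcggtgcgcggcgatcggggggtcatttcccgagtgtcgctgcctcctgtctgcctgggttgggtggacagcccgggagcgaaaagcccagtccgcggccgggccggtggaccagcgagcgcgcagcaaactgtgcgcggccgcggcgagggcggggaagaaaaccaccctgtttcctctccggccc
Junb: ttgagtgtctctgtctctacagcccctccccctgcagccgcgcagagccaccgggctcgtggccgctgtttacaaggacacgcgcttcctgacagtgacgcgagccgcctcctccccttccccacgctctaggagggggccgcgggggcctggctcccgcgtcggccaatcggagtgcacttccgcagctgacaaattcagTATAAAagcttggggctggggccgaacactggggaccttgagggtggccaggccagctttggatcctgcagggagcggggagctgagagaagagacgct
Jund: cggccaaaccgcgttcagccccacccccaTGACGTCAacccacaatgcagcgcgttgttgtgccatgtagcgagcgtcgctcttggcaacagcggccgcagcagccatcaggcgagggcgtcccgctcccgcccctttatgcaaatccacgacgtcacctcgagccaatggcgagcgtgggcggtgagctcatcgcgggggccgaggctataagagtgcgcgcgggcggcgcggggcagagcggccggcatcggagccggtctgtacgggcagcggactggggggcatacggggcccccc
Egr1: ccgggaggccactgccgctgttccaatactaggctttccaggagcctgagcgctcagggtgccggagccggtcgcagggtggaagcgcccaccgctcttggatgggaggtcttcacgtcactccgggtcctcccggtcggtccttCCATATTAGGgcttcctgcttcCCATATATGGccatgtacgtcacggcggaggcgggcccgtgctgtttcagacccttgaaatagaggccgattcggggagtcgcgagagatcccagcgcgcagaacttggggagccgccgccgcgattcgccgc
Egr1 held 2 CArG boxes, starting 105 and 83 bases before the start, a motif found in 1.64% of 33469 rat promoter windows of the same length. Jund held a cyclic AMP response element 221 bases before the start, found in 1.83% of windows, and Junb a TATA box 49 bases before it, found in 14.2%. The Fosl2 window held none of these motifs, and no AP-1 site, which 7.33% of windows hold, was found in any of the windows shown. A match of letters is a description and does not show binding.

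COPD lungs had more Junb than control lungs, while differences in Fos, Fosb, Jun and Egr1 did not exceed the wide spread between libraries. Jund, which varied least, was not called as deposited (log2 fold change -0.02) but was called higher after median-of-ratios scaling (0.92). WDD lungs had less Fosl2 than COPD and control lungs. They also had less Junb and Ier3 than COPD lungs, but these 2 calls ended when some single libraries were left out. Fosl1 was called lower in COPD and in WDD than in control lungs, the group through which it passed the filter, and neither call held when some single libraries were left out. Fos, Fosb, Egr1 and Atf3 differed more between libraries of a single group than between group means.

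**Figure D1:**
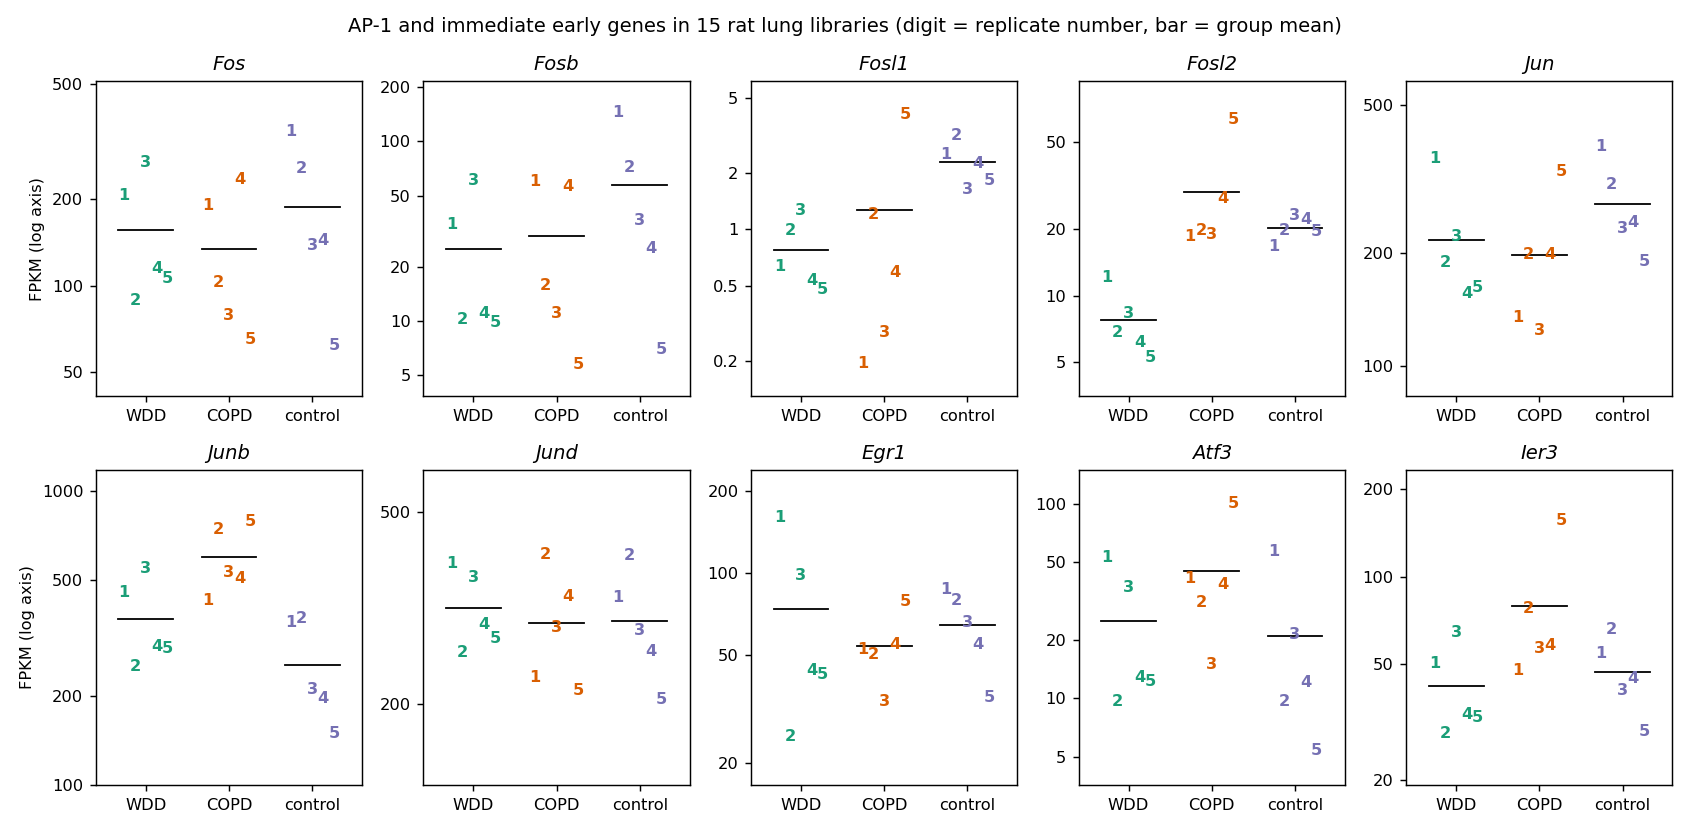
FPKM of the 10 genes on log axes in WDD, COPD and control lungs, with a digit for each library (its replicate number) and a bar for the group mean. Junb in all COPD libraries (425 FPKM or more) lies above all control libraries (369 FPKM or less), Fosl2 in all WDD libraries (12.1 FPKM or less) lies below all others (16.6 FPKM or more), and the groups overlap for Fos, Fosb, Jun, Jund, Egr1, Atf3 and Ier3.

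Junb (ENSRNOG00000042838) encodes a Jun protein that is itself an immediate early gene product and that can restrain c-Jun. It stood at 453, 253, 544, 296 and 292 FPKM in WDD libraries 1 to 5, at 425, 743, 528, 504 and 790.0 FPKM in COPD libraries 1 to 5, and at 357, 369, 211, 196 and 149.7 FPKM in control libraries 1 to 5. All COPD libraries lay above all control libraries, whereas WDD libraries overlapped with both groups. Junb rose in COPD against control lungs by a log2 fold change of 1.27 ± 0.28 (SE, n = 5 per group, adjusted p = 0.000611, limma across all genes), 2.08 above the median of all genes. It rose to 598 ± 159 FPKM in COPD lungs, against 257 ± 99.8 FPKM in control lungs (mean ± SD). This call held under every alternative, with log2 fold changes of 1.09 to 2.20 and adjusted p-values (limma) of 8.18e-06 to 0.00228.

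In WDD against COPD lungs Junb fell by 0.72 ± 0.28 on the log2 scale (adjusted p = 0.0318, limma), to 368 ± 125 FPKM in WDD lungs. The direction held under every alternative, but the call ended when WDD 2, WDD 4, WDD 5, COPD 2 or COPD 5 was left out (log2 fold changes of -0.60, -0.66, -0.66, -0.64 and -0.61, with adjusted p between 0.0671 and 0.0860, limma). It also ended without COPD 1 and COPD 5 (adjusted p = 0.0507, limma) and with WDD 4 and WDD 5 averaged (adjusted p = 0.0701, limma). Against control, Junb in WDD lungs had a log2 fold change of 0.54 ± 0.28 and was not called (adjusted p = 0.139, limma). It was called higher after median-of-ratios scaling (0.82, adjusted p = 0.0362, limma) and with library weights (0.72, adjusted p = 0.00622, limma).

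Markers of other cells moved with these differences. Of 10 neutrophil marker genes, 9 rose in COPD against control lungs (90%, against 8.23% of all genes). In WDD against COPD lungs 9 fell (90%, against 6.63% of all genes). Their summed level was 102 to 673 FPKM in WDD, 14655 to 49744 FPKM in COPD and 152 to 245 FPKM in control lungs. Fpr1 was at 0 in some WDD and control libraries and Ngp in some COPD libraries, and no neutrophil marker was at 0 throughout a group. In COPD libraries 1 to 5 the neutrophil sums were 14869, 49744, 33434, 26414 and 14655 FPKM. Junb stood beside them at 425, 743, 528, 504 and 790.0 FPKM. Across COPD 1 to 4 Junb had the same order as the sums, while COPD 5 had the lowest sum and the highest Junb. In COPD against control lungs 66.4% of all genes fell, as did all 6 alveolar type 1 markers and 6 of 7 T cell markers (85.7%). Alveolar type 1 sums were 548 to 1617 FPKM in COPD and 2827 to 3895 FPKM in control lungs. T cell sums were 19.9 to 56.3 FPKM in COPD and 127 to 179 FPKM in control lungs. Of other tested markers, 5 of 5 smooth muscle, 4 of 5 endothelial, 5 of 7 alveolar type 2 and 3 of 5 B cell markers fell. So did 2 of 5 fibroblast, 2 of 6 macrophage and monocyte, and 1 of 4 airway secretory markers. In the other direction, 1 of the 5 fibroblast markers (20%) and 1 of the 6 macrophage and monocyte markers (16.7%) rose, against 8.23% of all genes. None of the alveolar type 1 and T cell markers was at 0 in any library. The part of such shifts in the results was not tested, and in whole lung a change in the number of cells of a type and a change in RNA per cell cannot be told apart.

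Jun (ENSRNOG00000026293) encodes c-Jun, the subunit that JNK kinases activate. It stood at 358, 189, 222, 156 and 162 FPKM in WDD libraries 1 to 5, at 134, 199, 125, 199 and 331 FPKM in COPD libraries 1 to 5, and at 385, 306, 234, 242 and 189.7 FPKM in control libraries 1 to 5. The 3 groups overlapped, and 4 of 5 COPD libraries lay below 4 of 5 control libraries. No comparison called Jun. The log2 fold change was -0.50 ± 0.28 in COPD against control lungs (adjusted p = 0.112, limma), 0.16 ± 0.28 in WDD against COPD lungs (adjusted p = 0.631, limma) and -0.35 ± 0.28 in WDD against control lungs (adjusted p = 0.356, limma). Without COPD 5, Jun was called lower in COPD than in control lungs (-0.71, adjusted p = 0.0167, limma).

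Jund (ENSRNOG00000019568), the Jun gene that most cells express without a stimulus, varied least of the members. It stood at 391, 256, 366, 292 and 274 FPKM in WDD libraries 1 to 5, at 227, 407, 288, 335 and 214 FPKM in COPD libraries 1 to 5, and at 332, 406, 284, 257 and 204 FPKM in control libraries 1 to 5. The ranges of the groups nearly coincided. Log2 fold changes were -0.02 ± 0.21 in COPD against control lungs, 0.12 ± 0.21 in WDD against COPD lungs and 0.11 ± 0.21 in WDD against control lungs (adjusted p = 0.950, 0.621 and 0.728, limma). Since the median gene differed by -0.81 in COPD against control lungs, Jund lay 0.80 above it, and after median-of-ratios scaling Jund was called higher in COPD lungs (0.92, adjusted p = 0.000452, limma) and lower in WDD against COPD lungs (-0.53, adjusted p = 0.0284, limma).

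Fosl2 (ENSRNOG00000052357) encodes Fra-2, a Fos protein that lacks the strong activation domain of c-Fos and is tied to lung fibrosis in mice. It stood at 12.1, 6.78, 8.31, 6.09 and 5.23 FPKM in WDD libraries 1 to 5, at 18.5, 19.7, 18.9, 27.7 and 62.9 FPKM in COPD libraries 1 to 5, and at 16.6, 19.8, 23.0, 22.1 and 19.6 FPKM in control libraries 1 to 5. Every WDD library lay below every COPD and every control library, and 4 COPD libraries lay close to the controls while COPD 5 stood far above them. Fosl2 fell in WDD against COPD lungs by 1.69 ± 0.28 on the log2 scale (adjusted p = 0.000100, limma), to 7.71 ± 2.71 FPKM in WDD lungs, against 29.6 ± 19.0 FPKM in COPD lungs and 20.2 ± 2.49 FPKM in control lungs (mean ± SD, n = 5 each). This call held under every alternative, with log2 fold changes of -2.31 to -1.38 and adjusted p-values of at most 0.00103 (limma), the value of -1.38 being the one without COPD 5.

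In WDD against control lungs Fosl2 fell by 1.33 ± 0.28 (adjusted p = 0.00166, limma), 1.10 below the median of all genes. This call too held under every alternative, with log2 fold changes of -1.49 to -1.05 and adjusted p-values of at most 0.0176 (limma). Between WDD and control lungs the neutrophil sums overlapped, though 2 of 10 neutrophil markers rose in WDD lungs (20%, against 6.35% of all genes) and none fell. The summed level of 5 airway secretory cell markers was 17057 to 38593 FPKM in WDD and 10911 to 17103 FPKM in control lungs (exact permutation p = 0.0159, two-sided, n = 5 per group). Scgb1a1 made up most of this sum, averaging 26274 FPKM in WDD and 13336 FPKM in control lungs. Of the 4 tested secretory markers 1 rose (25%, against 6.35% of all genes) and none fell. The summed level of 7 macrophage and monocyte markers averaged 163 ± 31.1 FPKM in WDD and 235 ± 36.1 FPKM in control lungs, with overlap (mean ± SD, exact permutation p = 0.0159, two-sided, n = 5 per group). Of the 6 tested macrophage and monocyte markers none rose and 1 fell (16.7%, against 31% of all genes). No airway secretory marker was at 0 in any library, and Marco was at 0 in all control libraries and some WDD libraries. The part of these cells in the result was not tested. In COPD against control lungs the log2 fold change of Fosl2 was 0.36 ± 0.28 and was not called (adjusted p = 0.252, limma). It was 0.06 without COPD 5, and it was called higher after median-of-ratios scaling (1.26, adjusted p = 0.00246, limma) and quantile normalisation (0.95, adjusted p = 0.00431, limma).

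Fosl1 (ENSRNOG00000020552), which encodes Fra-1 and is itself switched on by AP-1, was the least abundant member. It stood at 0.632, 0.982, 1.25, 0.536 and 0.478 FPKM in WDD libraries 1 to 5, at 0.194, 1.20, 0.282, 0.593 and 4.10 FPKM in COPD libraries 1 to 5, and at 2.50, 3.17, 1.63, 2.23 and 1.82 FPKM in control libraries 1 to 5. All WDD libraries and 4 of 5 COPD libraries lay below all control libraries, and COPD 5 lay above them. On the log2(FPKM + 1) scale, which understates changes of low genes, Fosl1 fell by 0.74 ± 0.31 in COPD against control lungs (adjusted p = 0.0388, limma), close to the median of all genes. With no filter on low values this call ended (adjusted p = 0.0541, limma). It fell by 0.88 ± 0.31 in WDD against control lungs (adjusted p = 0.0323, limma).

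Both Fosl1 calls were fragile. In COPD against control lungs the call ended without COPD 1, 3 or 4 or control 1, 2 or 4 (log2 fold changes of -0.56, -0.59, -0.66, -0.71, -0.64 and -0.74, with adjusted p between 0.0597 and 0.115, limma), and the change was -1.08 without COPD 5. It also ended under all 3 other scalings, under quantile normalisation with a change of sign (0.20). In WDD against control lungs the call ended without WDD 1, 4 or 5 or control 1, 2 or 4 (-0.85, -0.83, -0.82, -0.85, -0.79 and -0.88, with adjusted p between 0.0564 and 0.0768, limma). Between WDD and COPD lungs the log2 fold change of Fosl1 was -0.14 ± 0.31 (adjusted p = 0.692, limma), or 0.20 without COPD 5.

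Fos (ENSRNOG00000008015) encodes c-Fos, the best known immediate early factor. It stood at 205, 89.1, 267, 115 and 106 FPKM in WDD libraries 1 to 5, at 189, 102, 78.6, 234 and 65.3 FPKM in COPD libraries 1 to 5, and at 341, 254, 138, 143 and 62.0 FPKM in control libraries 1 to 5. The lowest values of COPD and control lungs were alike, and the groups overlapped over most of their range. Log2 fold changes were -0.44 ± 0.45 in COPD against control lungs, 0.27 ± 0.45 in WDD against COPD lungs and -0.17 ± 0.45 in WDD against control lungs (adjusted p = 0.387, 0.612 and 0.803, limma).

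Fosb (ENSRNOG00000046667), a close relative of Fos, had the widest spread of the members. It stood at 34.4, 10.2, 60.4, 11.0 and 9.88 FPKM in WDD libraries 1 to 5, at 59.6, 15.8, 11.0, 55.9 and 5.74 FPKM in COPD libraries 1 to 5, and at 145, 71.8, 36.1, 25.3 and 6.98 FPKM in control libraries 1 to 5. The highest and the lowest control library differed by 20.7-fold. With log2 fold changes of -0.83 ± 0.76, -0.11 ± 0.76 and -0.94 ± 0.76 in COPD against control, WDD against COPD and WDD against control lungs, no comparison called Fosb (adjusted p = 0.332, 0.904 and 0.356, limma).

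Egr1 (ENSRNOG00000019422) encodes a zinc finger factor that responds to growth factors, injury and, in mice, cigarette smoke. It stood at 159.5, 25.0, 97.8, 43.7 and 42.4 FPKM in WDD libraries 1 to 5, at 52.2, 50.1, 33.8, 54.6 and 78.8 FPKM in COPD libraries 1 to 5, and at 87.0, 79.3, 65.6, 54.8 and 34.8 FPKM in control libraries 1 to 5. The WDD libraries held both the highest and the lowest value of the 15. Log2 fold changes were -0.23 ± 0.40, 0.19 ± 0.40 and -0.05 ± 0.40 in COPD against control, WDD against COPD and WDD against control lungs, none of them called (adjusted p = 0.608, 0.696 and 0.941, limma).

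Atf3 (ENSRNOG00000003745) encodes a stress-induced bZIP protein that damps the transcription of cytokine genes after TLR4 signals. It stood at 52.8, 9.59, 37.0, 12.7 and 12.2 FPKM in WDD libraries 1 to 5, at 41.1, 31.1, 14.9, 38.2 and 99.5 FPKM in COPD libraries 1 to 5, and at 56.8, 9.58, 21.2, 12.0 and 5.37 FPKM in control libraries 1 to 5. COPD libraries were mostly high, yet control 1 lay above 4 of them. In COPD against control lungs the log2 fold change was 1.25 ± 0.59 and narrowly missed the threshold (adjusted p = 0.0647, limma), 2.06 above the median of all genes. It was called after each of the 3 other scalings (1.45 to 2.14, adjusted p between 0.00762 and 0.0387, limma), without control 1 (1.71, adjusted p = 0.0104, limma) and without COPD 3 (1.57, adjusted p = 0.0264, limma). Without COPD 5 it was 0.90. The log2 fold change of Atf3 was -0.89 ± 0.59 in WDD against COPD lungs (adjusted p = 0.194, limma) and 0.36 ± 0.59 in WDD against control lungs (adjusted p = 0.670, limma).

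Ier3 (ENSRNOG00000000827) encodes a small protein that modulates cell survival and NF-kappaB signalling. It stood at 50.1, 28.8, 64.5, 33.7 and 32.8 FPKM in WDD libraries 1 to 5, at 47.7, 77.7, 56.6, 57.8 and 156 FPKM in COPD libraries 1 to 5, and at 54.4, 65.9, 40.6, 44.8 and 29.2 FPKM in control libraries 1 to 5. The groups overlapped, with COPD 5 far above every other library. Ier3 fell by 0.82 ± 0.30 in WDD against COPD lungs (adjusted p = 0.0260, limma). The call ended without WDD 2, WDD 4, WDD 5 or COPD 5 (log2 fold changes of -0.71, -0.76, -0.75 and -0.55, with adjusted p between 0.0565 and 0.0690, limma) and with WDD 4 and WDD 5 averaged (adjusted p = 0.0574, limma). Ier3 had a log2 fold change of 0.65 ± 0.30 in COPD against control lungs and was not called (adjusted p = 0.0617, limma), while it was called higher after each of the 3 other scalings (0.85 to 1.57, adjusted p between 0.000618 and 0.0123, limma). Without COPD 5 it was 0.37 (adjusted p = 0.174, limma). It was also called without COPD 1 (0.80, adjusted p = 0.0321, limma) and without control 2 (0.78, adjusted p = 0.0362, limma). Its log2 fold change in WDD against control lungs was -0.17 ± 0.30 (adjusted p = 0.695, limma).

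In the comparison of COPD with control lungs, which addresses the effect of the LPS and smoke exposure, 1 of the 10 genes was called higher (Junb) and 1 lower (Fosl1) at an adjusted p under 0.05. Of all 13172 genes 74.7% were called, 8.23% higher and 66.4% lower. The members' standard errors ran up to 0.76. In the comparison of WDD with COPD lungs, which addresses the decoction in exposed rats, none was called higher and 3 were called lower (Fosl2, Junb and Ier3), against 63.8% called over all genes, 57.1% higher and 6.63% lower. In WDD against control lungs none was called higher and 2 lower (Fosl1 and Fosl2), against 37.3% called over all genes, 6.35% higher and 31% lower. The 3 comparisons share libraries in pairs and are not independent of each other. COPD and control libraries did not overlap for Junb, the 1 such member, against 56.3% of all genes, 3.99% wholly higher and 52.3% wholly lower. WDD and COPD libraries did not overlap for Fosl2, again 1 member, against 45.1% of all genes, 40.6% wholly higher and 4.43% wholly lower. WDD and control libraries did not overlap for Fosl1 and Fosl2, against 38.1% of all genes, 6.76% wholly higher and 31.4% wholly lower.

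**Figure D2:**
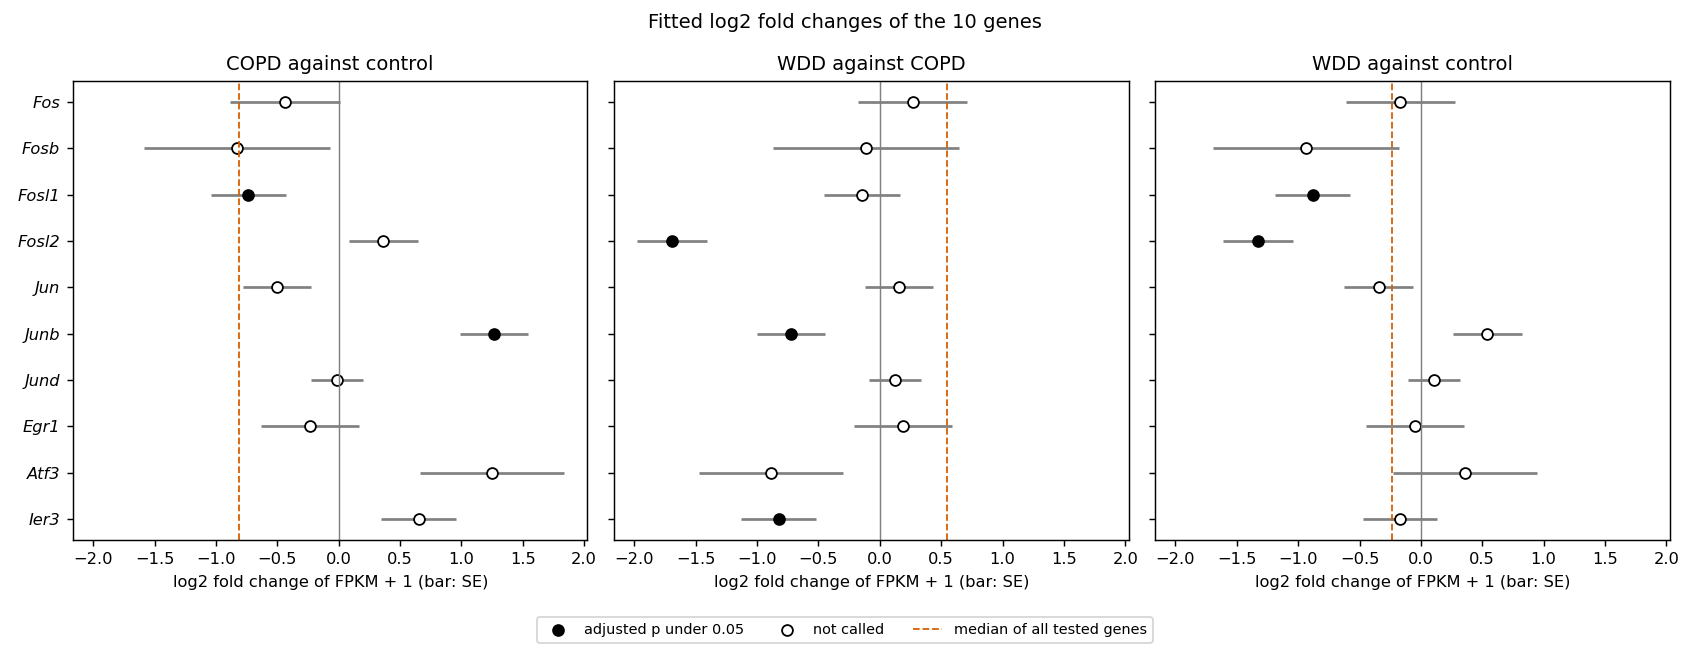
Log2 fold changes of FPKM + 1 with their standard errors for the 10 genes in each of the 3 comparisons, filled where the adjusted p was under 0.05, with a dashed line at the median of all tested genes (-0.81, 0.54 and -0.23). Junb in COPD against control lungs (1.27) and Fosl2 in WDD against COPD lungs (-1.69) lie farthest from that line.

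The direction of some members that were not called depended on how the libraries were scaled, while Fosl2, Atf3 and Ier3 in COPD against control lungs and Atf3 in WDD against COPD lungs kept theirs. Median-of-ratios scaling moved the median of all genes to -0.05 in COPD against control lungs (-0.81 as deposited) and to 0.03 in WDD against COPD lungs (0.54 as deposited). Under it 5 members were called higher in COPD against control lungs (Fosl2, Junb, Jund, Atf3 and Ier3) and none lower, and 4 were called lower in WDD against COPD lungs (Fosl2, Junb, Jund and Ier3). In COPD against control lungs the signs of Fos, Fosb, Jun, Jund and Egr1 turned positive. Over all genes this scaling gave 3977 higher and 4257 lower in COPD against control lungs, and 3076 higher and 2819 lower in WDD against COPD lungs.

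**Figure D3:**
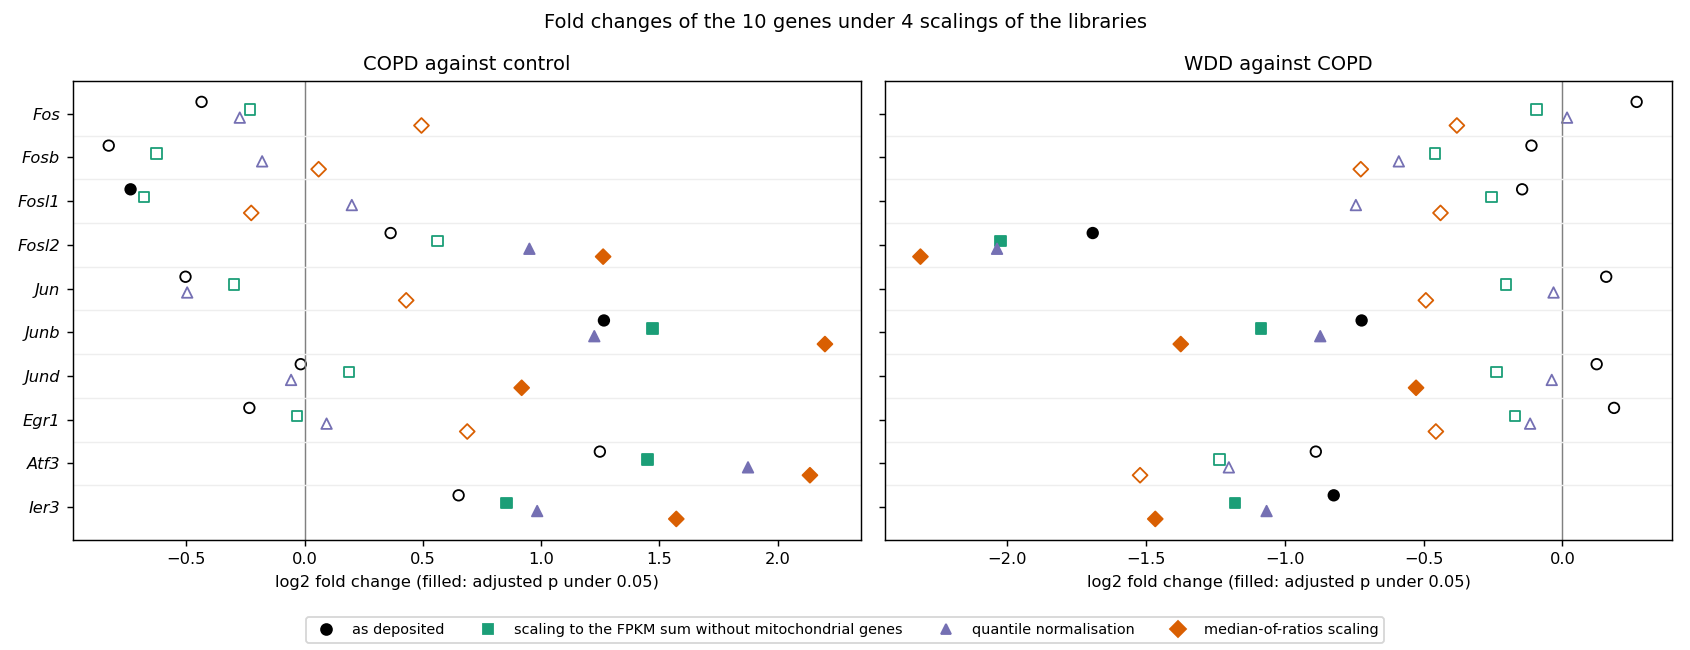
Log2 fold changes of the 10 genes in COPD against control and in WDD against COPD lungs as deposited and under 3 other scalings, filled where the adjusted p was under 0.05. Junb is higher in COPD lungs under all 4 (1.22 to 2.20) and Fosl2 lower in WDD against COPD lungs under all 4 (-2.31 to -1.69), while Fos, Jun, Jund and Egr1, and in COPD against control lungs also Fosb and Fosl1, change sign.

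Shares within a family do not change when a library is multiplied by a factor. They are parts of a fixed whole, so the share of a gene can fall or rise because another gene of the family changed. Junb made up 40.4% ± 4.58 of the summed FPKM of the Jun family in WDD lungs, 54.6% ± 3.88 in COPD lungs and 30.4% ± 3.03 in control lungs (mean ± SD, n = 5 each). Its share ranged from 36.3% to 48.1% in WDD, from 48.6% to 59.2% in COPD and from 27.5% to 34.1% in control libraries, so that no 2 groups overlapped. Jun made up 23.9% ± 4.31 in WDD, 17.8% ± 4.52 in COPD and 33.2% ± 3.07 in control lungs, with no overlap between COPD and control libraries. Jund made up 35.7% ± 3.10 in WDD, 27.6% ± 6.58 in COPD and 36.4% ± 3.14 in control lungs, and was lowest in COPD 5 at 16.0%. Thus Junb was the most abundant Jun gene in every COPD library and also in WDD 1, WDD 3, WDD 4 and WDD 5. In WDD 2 Jund (36.7%) lay just above Junb (36.3%). In control libraries the order of the 3 genes varied, with shares between 27.5% and 39.0%, and Junb was first in none of them.

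Except in COPD 5, Fos made up most of the Fos family sum, 83.5% ± 3.43 in WDD, 67.5% ± 11.3 in COPD and 70.5% ± 2.85 in control lungs. Its share was 79.2% to 87.2% in WDD libraries, above all COPD libraries (47.3% to 73.6%) and all control libraries (67.6% to 74.2%). Fosl2 made up 2.47% to 6.33% in WDD, 6.94% to 45.6% in COPD and 3.29% to 21.6% in control libraries, so that WDD and COPD libraries did not overlap. Fosl1 did not exceed 2.97% anywhere. COPD 5 differed from the other COPD libraries in this makeup, with Fosl2 at 45.6% close to Fos at 47.3%. These shares are given as a description, with no test.

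**Figure D4:**
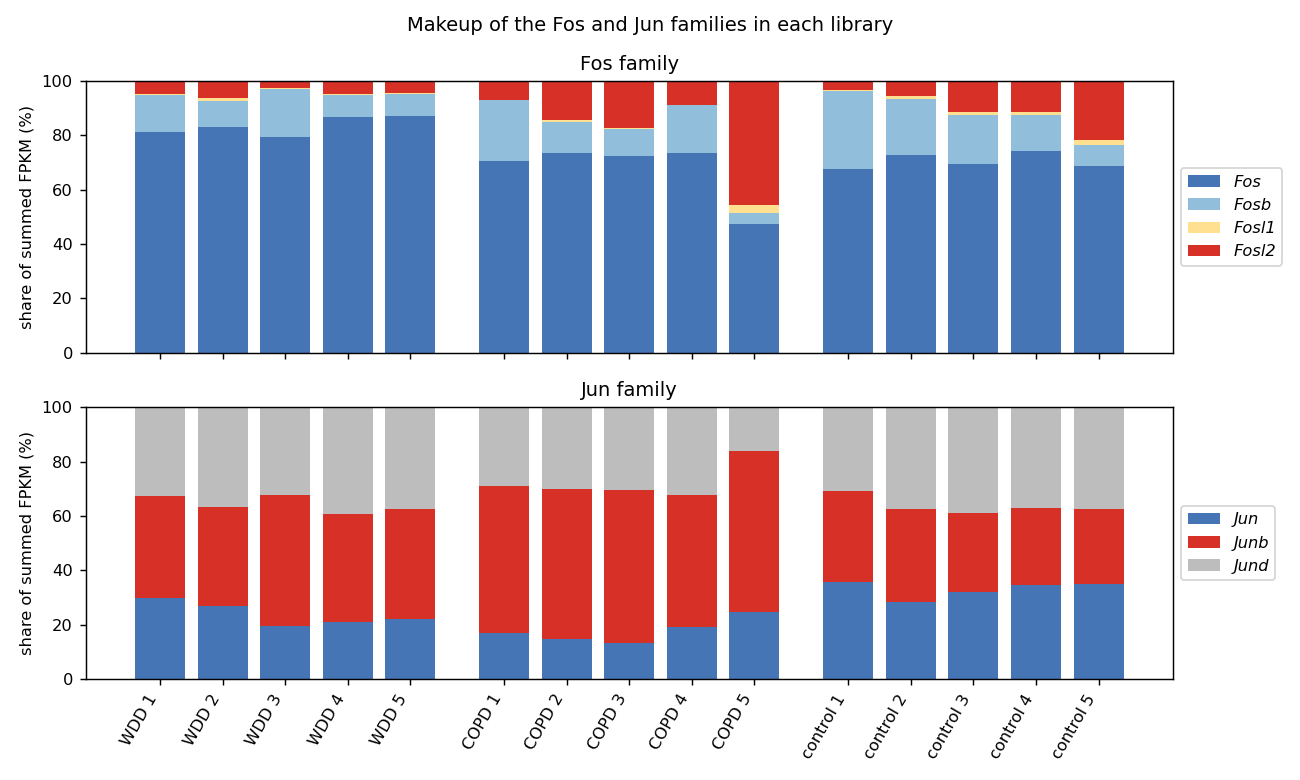
Share in percent of the summed FPKM of the Fos family (top) and the Jun family (bottom) held by each gene in each of the 15 libraries, WDD, COPD and control from left to right. Junb holds 48.6% to 59.2% of the Jun family in COPD libraries and 27.5% to 34.1% in control libraries, and Fosl2 stands out in COPD 5 at 45.6% of the Fos family.

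Pooled over the groups, libraries of one group differed more for each of the 10 genes than for the median tested gene. The pooled standard deviation inside groups, on the log2(FPKM + 1) scale, was 1.39 for Fosb, 1.07 for Atf3, 0.81 for Fos and 0.72 for Egr1, at percentiles 99.7, 99.1, 97.6 and 96.3 of the tested genes. It was 0.48 to 0.54 for Fosl1, Fosl2, Jun, Junb and Ier3 and 0.35 for Jund, against a median of 0.31 over all tested genes. The highest control library exceeded the lowest by 10.6-fold for Atf3 and 5.50-fold for Fos, against a median of 1.52-fold over all tested genes. In the WDD group the same ratio was 6.39 for Egr1, 6.12 for Fosb and 5.50 for Atf3, against a median of 1.42. In the COPD group it was 21.1 for Fosl1, 10.4 for Fosb, 6.66 for Atf3, 3.59 for Fos, 3.39 for Fosl2, 3.26 for Ier3 and 2.66 for Jun. There Egr1 (2.33), Jund (1.91) and Junb (1.86) lay below the median of all tested genes, which was 2.46.

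The same libraries were high for many members at once. In the WDD group, WDD 3 was among the 2 highest libraries for all 10 genes and WDD 1 for 9, and WDD 2 was the lowest for 6. Among controls, control 1 was among the 2 highest for 9 genes and control 2 for 8, and control 5 was the lowest for 8. In the COPD group the genes split: COPD 5 was the highest for Fosl1, Fosl2, Jun, Junb, Egr1, Atf3 and Ier3 and the lowest for Fos, Fosb and Jund, while Fos and Fosb were highest in COPD 1 and COPD 4. Replicate numbers carry no order. Among the 30 pairs of libraries within groups, WDD 4 with WDD 5 differed least over all tested genes, with a root-mean-square difference of 0.23 on the log2 scale against 0.34 to 1.01 for the other pairs.

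**Figure D5:**
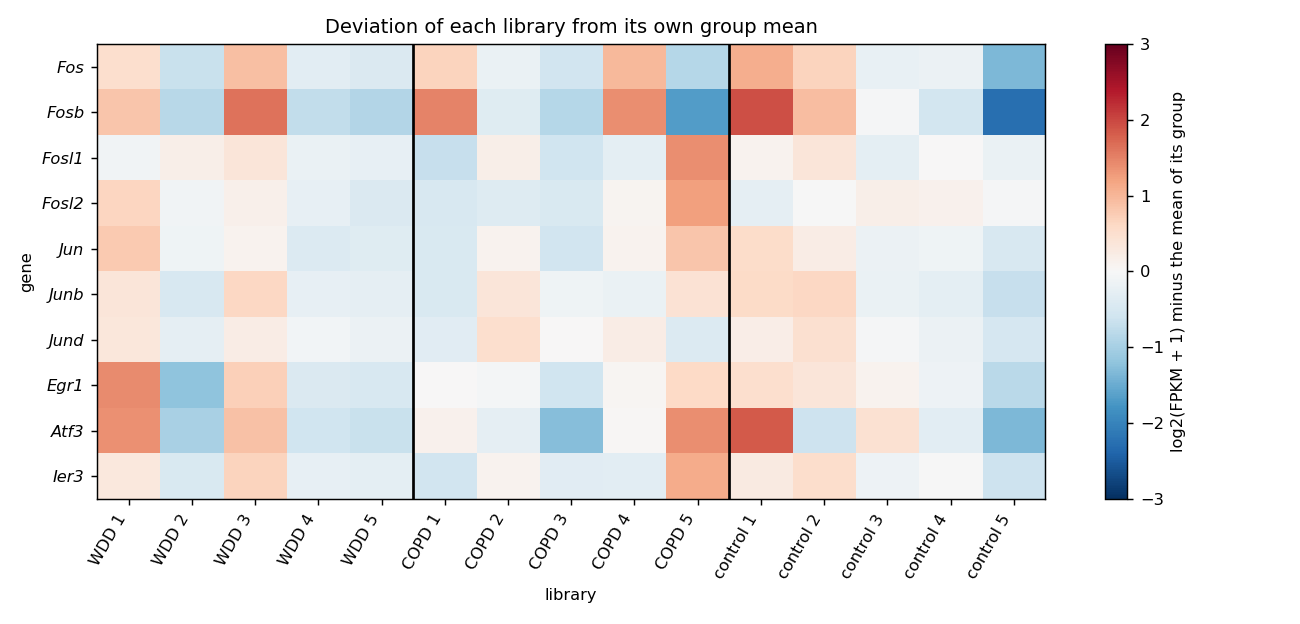
Deviation of each library from the mean of its own group, in log2(FPKM + 1), for the 10 genes (down the page) in the 15 libraries (across), red above and blue below that mean. Fosb spans from -2.26 in control 5 to 1.93 in control 1, WDD 1 and WDD 3 are mostly red, and COPD 5 is red for Fosl1, Fosl2, Jun, Junb, Egr1, Atf3 and Ier3 but blue for Fos, Fosb and Jund.

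Outside the members, the genes with the most similar profiles were found by the root-mean-square difference in log2(FPKM + 1) over the 15 libraries, after centring each gene. For Fos, Fosb and Egr1 the closest gene was Plk3, a growth factor-induced kinase, with differences of 0.46, 0.97 and 0.37, beside spreads of 0.74, 1.31 and 0.65 of these genes around their own means. The next were Sap25 (0.50) for Fos, AC115420.4 (1.00) for Fosb and Btg2 (0.40) for Egr1. Jun was closest to Dusp1 (0.23), a phosphatase of MAP kinases, and Il4r (0.24), and Junb to Ppp1r15a (0.34), a stress-induced phosphatase subunit, and Pus1 (0.35). Ier3 was closest to Ier5 (0.23) and Zfp36 (0.27), and Jund to Pias4 (0.16) and Sirt7 (0.19). Fosl2 was closest to Cers6 (0.28) and Msr1 (0.31), Fosl1 to Tapbp (0.27) and Spry1 (0.28), and Atf3 to Icam4 (0.65) and Sat1 (0.72).

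Other immediate early genes moved in both directions. Of 25 listed genes 22 were tested, and in COPD against control lungs 2 rose (9.09%, against 8.23% of all genes) and 10 fell (45.5%, against 66.4% of all genes), with a median log2 fold change of -0.67 beside -0.81 for all genes, or 7 rose and 3 fell after median-of-ratios scaling. Gadd45g, a stress sensor, averaged 229 ± 166 FPKM in COPD and 62.8 ± 17.5 FPKM in control lungs (log2 fold change 1.66 ± 0.33), and Zfp36, which speeds the decay of cytokine transcripts, 688 ± 264 FPKM in COPD and 362 ± 82.4 FPKM in control lungs (0.88 ± 0.23). Klf4, an epithelial and endothelial transcription factor, averaged 33.8 ± 14.9 FPKM in COPD and 122 ± 23.3 FPKM in control lungs (-1.97 ± 0.31). Per1, also a clock gene, fell by 1.75 ± 0.24, and the nuclear receptor Nr4a2 fell by 1.35 ± 0.24, though the call of Nr4a2 ended under quantile normalisation (adjusted p = 0.260, limma).

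Of these genes 6 rose (27.3%, against 57.1% of all genes) and 4 fell (18.2%, against 6.63%) in WDD against COPD lungs, with a median of 0.27 beside 0.54 for all genes, or 3 rose and 5 fell after median-of-ratios scaling. Klf4, Per1 and Nr4a2 rose by 1.58 ± 0.31, 1.46 ± 0.24 and 1.45 ± 0.24. Zfp36 fell by 1.12 ± 0.23, the kinase-like adaptor Trib1 fell by 1.00 ± 0.34 and Ier5, a cofactor of the heat shock response, fell by 0.86 ± 0.27. Without COPD 5 the changes of Trib1 and Ier5 were -0.60 and -0.57 and stayed called (adjusted p = 0.0168 and 0.0134, limma). Between WDD and control lungs 1 rose (4.55%, against 6.35% of all genes) and 3 fell (13.6%, against 31%) in WDD, or 2 and 1 after median-of-ratios scaling. The rise was lost (0 genes) without WDD 3, 4 or 5, COPD 4 or control 3, 4 or 5, and 5 fell without WDD 1 or COPD 5.

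Other bZIP factors, which can pair with Fos, Jun or ATF proteins or compete for their sites, numbered 23, all tested. There were 7 that rose (30.4%, against 8.23% of all genes) and 8 that fell (34.8%, against 66.4%) in COPD against control lungs, with a median log2 fold change of 0.20 beside -0.81 for all genes, or 15 rose and 2 fell after median-of-ratios scaling. Cebpb, a factor of inflammatory and acute-phase genes, averaged 579 ± 188 FPKM in COPD and 91.4 ± 29.8 FPKM in control lungs (2.63 ± 0.37). Batf, an AP-1 factor of lymphocytes and myeloid cells, rose by 2.56 ± 0.40, or 2.06 without COPD 5, and Nfil3, a repressor induced by cytokines, rose by 2.12 ± 0.27. Atf7 (-2.48 ± 0.25), Maf, a factor of macrophages and T cells (-1.58 ± 0.22), and Atf6, a sensor of unfolded proteins (-1.14 ± 0.31), fell. The calls of Maf under quantile normalisation (adjusted p = 0.0608, limma) and of Atf6 under both median-of-ratios scaling and quantile normalisation (adjusted p = 0.422 and 0.436, limma) ended.

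Of the bZIP factors 2 rose (8.7%, against 57.1% of all genes) and 7 fell (30.4%, against 6.63%) in WDD against COPD lungs, with a median of -0.28 beside 0.54 for all genes, or none rose and 15 fell after median-of-ratios scaling. Batf (-2.01 ± 0.40), Cebpb (-1.34 ± 0.37) and Nfil3 fell, Nfil3 to 6.39 ± 1.92 FPKM in WDD lungs, against 28.6 ± 7.50 FPKM in COPD lungs. Cebpb averaged 249.8 ± 152 FPKM in WDD lungs, against 579 ± 188 FPKM in COPD lungs. The rises, Maf (0.90 ± 0.22) and Atf7 (0.61 ± 0.25), were not called under any of the 3 other scalings, and that of Atf7 also ended without WDD 1, 2 or 3, COPD 1, 2 or 3, or control 2 or 4 (adjusted p between 0.0505 and 0.0985, limma). Without COPD 5, 4 of the factors rose, and without WDD 1, 2 or 3, COPD 1 or 2, or control 2 or 4, 1 rose. Relative to control lungs, 4 rose (17.4%, against 6.35% of all genes) and 7 fell (30.4%, against 31%) in WDD lungs, or 5 and 3 after median-of-ratios scaling. There 2 rose without WDD 1 or 5 or control 3 or 4, and 4 fell without control 3.

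Of 25 genes of the MAP kinase cascade and SRF, which relay signals to the members, 24 were tested. Here 1 rose (4.17%, against 8.23% of all genes) and 18 fell (75%, against 66.4%) in COPD against control lungs, shares near those of all genes, with a median log2 fold change of -0.89 beside -0.81 for all genes, or 8 rose and 6 fell after median-of-ratios scaling. Map2k7, an activator of JNK, averaged 7.36 ± 1.29 FPKM in COPD and 28.8 ± 6.59 FPKM in control lungs (-1.81 ± 0.18). Elk4, a partner of SRF, fell as well (-1.32 ± 0.13). The rise was that of Map2k3, an activator of p38 kinases (0.94 ± 0.37), and was lost with library weights (0.81, adjusted p = 0.0740, limma), without COPD 1 or 5 or control 2, 3 or 5 (0.80, 0.81, 0.91, 0.93 and 0.65, with adjusted p between 0.0532 and 0.102, limma) and without COPD 1 and COPD 5 together (0.57, adjusted p = 0.217, limma). The cascade had 2 genes called higher without COPD 1 or control 1, and none without control 3 or 5.

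The cascade had 12 genes that rose (50%, against 57.1% of all genes) and 1 that fell (4.17%, against 6.63%) in WDD against COPD lungs, again near the shares of all genes, with a median of 0.34 beside 0.54 for all genes, or 3 rose and 6 fell after median-of-ratios scaling. The p38 activator Map2k6 and the p38 kinase genes Mapk13 and Mapk12 rose by 1.40 ± 0.19, 1.11 ± 0.17 and 1.09 ± 0.32, the last of these not under the 3 other scalings (adjusted p between 0.0649 and 0.175, limma). Mapkapk2, a kinase downstream of p38 that stabilises cytokine transcripts, fell by 0.90 ± 0.31, or by 0.50 without COPD 5 (adjusted p = 0.00131, limma). Without COPD 1, 2 genes of the cascade fell. Against control, WDD lungs had no such gene higher (against 6.35% of all genes) and 10 lower (41.7%, against 31%). These counts were 2 and 5 after median-of-ratios scaling. As deposited, 1 was higher without COPD 5 or control 2.

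MAP kinase phosphatases and feedback inhibitors, 15 genes that switch these signals off, were all tested. None rose and 13 fell (86.7%, against 66.4% of all genes) in COPD against control lungs, with a median log2 fold change of -1.36 beside -0.81 for all genes, or 2 rose and 9 fell after median-of-ratios scaling. Dusp14, Dusp4 and Dusp6 fell (-2.64 ± 0.16, -2.57 ± 0.21 and -2.29 ± 0.15), and Dusp6 averaged 21.2 ± 4.26 FPKM in COPD and 106 ± 11.0 FPKM in control lungs. In WDD against COPD lungs 10 rose (66.7%, against 57.1% of all genes) and 1 fell (6.67%, against 6.63%), with a median of 0.68 beside 0.54 for all genes, or 4 rose and 2 fell after median-of-ratios scaling. Dusp14, Dusp6 and Dusp4 rose by 2.11 ± 0.16, 1.24 ± 0.15 and 1.11 ± 0.21, the last of these not under quantile normalisation (adjusted p = 0.123, limma), and Dusp16, which acts on JNK, fell by 0.82 ± 0.22. Against control, WDD lungs had no such gene higher (against 6.35% of all genes) and 9 lower (60%, against 31%).

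Genes known as AP-1 targets from other work split in COPD lungs. Of 22 listed 18 were tested, 7 rose (38.9%, against 8.23% of all genes) and 6 fell (33.3%, against 66.4%) in COPD against control lungs, and the median log2 fold change was 0.28 beside -0.81 for all genes, or 12 rose and 3 fell after median-of-ratios scaling. Some of these genes passed the filter through the group where they were high, Il6 through the COPD libraries alone, so these counts include genes that had to differ. Il6 was at 12.1 to 98.0 FPKM in COPD libraries and at most 0.525 FPKM in control libraries. Mmp9 was at 26.1 to 61.0 FPKM in COPD and 0.249 to 1.30 FPKM in control libraries, and reached 1 FPKM in 5 COPD, 2 WDD and 1 control library. The rises of largest size were in Mmp9 (4.69 ± 0.24), the cytokine Il6 (4.56 ± 0.38) and Timp1, an inhibitor of metalloproteinases (3.29 ± 0.34). Timp1 averaged 386 ± 265 FPKM in COPD and 34.4 ± 12.5 FPKM in control lungs. Plau, which encodes urokinase (-3.31 ± 0.20), the vascular growth factor Vegfa (-2.45 ± 0.22) and the macrophage elastase Mmp12 (-1.54 ± 0.32) fell. The fall of Mmp12 was not called under quantile normalisation (adjusted p = 0.149, limma).

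Of the targets 3 rose (16.7%, against 57.1% of all genes) and 10 fell (55.6%, against 6.63%) in WDD against COPD lungs, with a median of -0.91 beside 0.54 for all genes, or 3 rose and 13 fell after median-of-ratios scaling. Il6 (at most 0.532 FPKM) and Mmp9 (0.262 to 1.27 FPKM in WDD libraries), which owe their place among the tested genes to the COPD libraries, and Timp1 fell (-4.52 ± 0.38, -4.60 ± 0.24 and -2.84 ± 0.34), and Vegfa, Plau and Mmp12 rose by 2.02 ± 0.22, 1.84 ± 0.20 and 1.29 ± 0.32, that of Mmp12 not under quantile normalisation (adjusted p = 0.0958, limma). Il6 and Mmp9 were also called in both comparisons with no filter on low values. Mmp9 is also a neutrophil product, and it moved beside the neutrophil sums given above. Against control, WDD lungs had no such gene higher (against 6.35% of all genes) and 5 lower (27.8%, against 31%), or 2 lower after median-of-ratios scaling. Adjusted p-values (limma) of the genes named for these lists were at most 0.0424 in both comparisons.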

How the data were processed

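Gene expression was measured by RNA-seq in 15 rat lung libraries. Per the labels' protocols, total RNA was isolated with TRIzol and prepared with the NEBNext Ultra RNA kit. The tools named per the submitters' processing notes are cutadapt, HISAT2 and StringTie, with the build Rnor_6.0. Their versions, the annotation and the strand setting are not stated. The deposited values are FPKM computed by the authors, with Ensembl identifiers and symbols, and reads of overlapping genes may not be separated. Counts were not used here, and intervals from counts are therefore not given. The members, lists and tests were chosen with earlier results of these data known.

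The filter on low values kept 13172 of 22250 genes (1 FPKM or more in 5 or more libraries). Their log2(FPKM + 1) was fitted by group over all libraries with limma 3.58.1 (eBayes with trend, R 4.3.3). Tests were two-sided with Benjamini-Hochberg adjustment over these genes, and a call needs an adjusted p under 0.05. A single value was compared by an exact permutation test. The procedure was tested on simulated data with independent normal values, the same spread in every group and few changed genes. Those data held no shift of most genes and no outlying library, so the procedure was not tested under such conditions. Named genes are the members, up to 3 called genes of greatest rise and 3 of greatest fall per list in COPD against control and WDD against COPD lungs, and the 2 genes of most similar profile per member, with 1 listed gene not reported here. Relative depth is the most frequent ratio between libraries of low FPKM values. Figures and motif searches used Python 3.11.15 with pandas 2.3.3 and matplotlib 3.10.9. Alternatives varied the pseudocount, filter, scaling, variance trend and weights, fitted 2 groups alone, added a replicate block, and left out or averaged libraries. Of 15 pairs of libraries sharing a replicate number, 1 correlated above 0.1 after group means were removed. Libraries of unlike number were not correlated for comparison, so pairing was neither shown nor excluded.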

Additional observations from a re-analysis of the deposited data

Results flagged for a closer look

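In 30 sets of 5 libraries (10 genes in 3 groups), a library lay far from the other 4 in 3 sets, judged on FPKM without logs. Far means a gap of more than 0.71 of the range of the set. Each time it was COPD 5, which also differed most from the other libraries of its group over all tested genes. The rule was not applied on the log2 scale of the fits, where high values lie closer together. Chance alone marks about 1 in 20 sets if values are normally distributed, which FPKM need not be, and the genes of a library are not independent of each other. Fosl1 stood at 4.10 FPKM in COPD 5 and at 0.194 to 1.20 FPKM in the other COPD libraries. Fosl2 stood at 62.9 FPKM in COPD 5 and at 18.5 to 27.7 FPKM in the others. Ier3 stood at 156 FPKM in COPD 5 and at 47.7 to 77.7 FPKM in the others. In the same library the summed neutrophil markers (14655 FPKM), T cell markers (19.9 FPKM) and B cell markers (4.62 FPKM) were the lowest of the COPD group, and the part of this in the values was not tested.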

How the results depend on the processing

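Over all alternatives, 240 member values in COPD against control, 242 in WDD against COPD and 251 in WDD against control lungs kept their direction and their side of the threshold, while 15, 0 and 2 gained a call in the same direction, 10, 13 and 10 lost one, and 14, 24 and 16 turned sign. Of those that turned, Jund under median-of-ratios scaling was called in COPD against control (adjusted p = 0.000452, limma) and in WDD against COPD lungs (adjusted p = 0.0284, limma). The calls of Junb in COPD against control lungs and of Fosl2 in WDD against COPD and control lungs held under all of them. Depth in reads was not used, and low values such as those of Fosl1 are the least precise. A filter on a mean of at least 5 FPKM leaves Fosl1 (mean 1.44 FPKM) untested, so its calls are absent there by construction. Counts over all genes then cover fewer genes. For the other changes below, the cause was not tested.

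Counts of members called higher in COPD against control lungs (1 as reported) became 5 under median-of-ratios scaling, 3 under scaling without mitochondrial genes, 4 under quantile normalisation and 2 with the replicate block, and 1 to 2 with a library left out. Members lower (1) became 0 with no filter, a mean of at least 5 FPKM, the 3 scalings or only the 2 groups compared, 2 without COPD 1 and COPD 5, and 0 to 2 with a library left out. Members lower in WDD against COPD lungs (3) became 1 with WDD 4 and WDD 5 averaged and 1 to 3 with a library left out. Members higher in WDD against control lungs (0) became 1 under median-of-ratios scaling and library weights. Members lower (2) became 1 with a pseudocount of 0.1, a mean of at least 5 FPKM, median-of-ratios scaling, quantile normalisation or averaging, and 1 to 2 with a library left out. The replicate block also brought a call of Atf3 in COPD against control lungs (1.25, adjusted p = 0.0488, limma) and ended the call of Ier3 in WDD against COPD lungs (adjusted p = 0.0503, limma).

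All genes higher in COPD against control lungs (1084) became 3977 (median-of-ratios) and 3737 (quantile), and lower (8749) 4257 and 3893. For WDD against COPD, higher (7526) became 3076 under median-of-ratios scaling, 4544 without mitochondrial genes and 2910 under quantile normalisation, and lower (873) 2819, 1511 and 2469, or 1332 without COPD 1 and COPD 5. For WDD against control, higher (836) became 2100 under median-of-ratios scaling, 2288 under quantile normalisation, 2093 with weights, 1642 with 2 groups and 1487 without COPD 1 and COPD 5, and lower (4079) 2555 at a mean of at least 5 FPKM, 2221 and 2408 under median-of-ratios and quantile scaling.

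Genes of the pathway lists higher in COPD against control lungs (17) became 43 (median-of-ratios) and 34 (quantile), and lower (55) 23 and 24. For WDD against COPD, higher (33) became 13, 13 and, without mitochondrial genes, 16, and lower (23) 40 and 35. For WDD against control, higher (5) became 9, 9 and 3 under these scalings, 15 with weights, 10 with 2 groups, 9 without COPD 1 and COPD 5, 3 with averaging and 2 to 7 with a library left out, and lower (34) 17, 22 and, with weights, 54.

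Signs turned, in log2 units, for values that were not called as reported. Under median-of-ratios scaling, COPD against control gave Fos 0.49, Fosb 0.060, Jun 0.43, Jund 0.92 and Egr1 0.69, WDD against COPD gave Fos -0.38, Jun -0.49, Jund -0.53 and Egr1 -0.46, and WDD against control gave Fos 0.11, Egr1 0.23 and Ier3 0.10. Without mitochondrial genes, Jund was 0.19 in COPD against control, Fos -0.093, Jun -0.20, Jund -0.24 and Egr1 -0.17 in WDD against COPD, and Jund -0.049 in WDD against control lungs. Under quantile normalisation, Egr1 was 0.093 in COPD against control, Jun -0.032, Jund -0.038 and Egr1 -0.12 in WDD against COPD, and Jund -0.095 in WDD against control lungs. Values with a call as reported that turned there were Fosl1 in COPD against control (0.20) and Atf7 in WDD against COPD lungs (-0.039). With weights, Jund was 0.25 in COPD against control, Fosl1 0.12 and Jund -0.042 in WDD against COPD, and Fos 0.060 and Egr1 0.018 in WDD against control lungs. Without COPD 1 and COPD 5, Jund was 0.23 in COPD against control, and Fosl1 0.088 and Jund -0.13 in WDD against COPD lungs. With averaging, Fosb was 0.091 in WDD against COPD and Egr1 0.067 in WDD against control lungs. With single libraries left out, Jund ranged from -0.14 to 0.11 in COPD against control lungs. In WDD against COPD lungs Fosb ranged from -0.53 to 0.26, Fosl1 from -0.32 to 0.20, Jun from -0.039 to 0.37 and Egr1 from -0.17 to 0.49. In WDD against control lungs Fos ranged from -0.51 to 0.10, Jund from -0.017 to 0.23 and Egr1 from -0.40 to 0.26.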
